A study of Mus musculus with 36 samples.

Results

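The 35 genes described here encode the proteins of glycolysis and of the response to low oxygen. They were listed by name for their known roles, with earlier results of these data known. They comprise 4 carriers of glucose and lactate (*Slc2a1*, *Slc2a3*, *Slc16a1* and *Slc16a3*), 15 enzymes from hexokinase to pyruvate kinase, 2 lactate dehydrogenases with 2 regulatory kinases (*Ldha*, *Ldhb*, *Pfkfb3* and *Pdk1*), 4 oxygen-sensing genes (*Hif1a*, *Epas1*, *Egln1* and *Egln3*) and 8 hypoxia response targets. All 35, of 46603 genes listed, were found in the count tables of both stages, and all 35 passed the filter on low counts in every comparison.

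Glycolysis breaks glucose down to pyruvate, which lactate dehydrogenase can turn into lactate for export, and it serves dividing embryonic cells both for energy and for building blocks. Most of its steps can be carried out by several isoenzymes that differ between cell types, for example an enolase typical of neurons. When oxygen is low, prolyl hydroxylases stop marking the hypoxia-inducible factor (HIF) alpha subunits for degradation. HIF dimers then bind the core letters ACGTG or GCGTG in the control regions of carriers, glycolytic enzymes and other targets. The early neural tube forms before blood vessels grow into it, which is why this pathway is often studied there.

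RNA was sequenced from mouse neocortex at embryonic day 12.5 (E12.5) and from telencephalic vesicles, labelled as cortex, at E10.5, with 3 libraries in each of 6 groups. The series compared genotypes that carry altered alleles of *Chd8*, which encodes an autism-associated chromatin remodeller. At E12.5, with 1 embryo per library, the groups were wildtype (*Chd8* +/+), heterozygous for a null allele (*Chd8* +/-), homozygous for a hypomorphic allele (*Chd8* neo/neo) and carrying 1 hypomorphic and 1 null allele (*Chd8* neo/-). The neo allele holds a loxP/FRT-PGK-gb2-Neo cassette behind exon 3, so that neo mutants also carry a copy of a Pgk1-type promoter. At E10.5, with RNA of 2 embryos pooled per library, Ctrl embryos carried floxed *Chd8* (labelled as a combination of f/f and f/+), and cKO embryos were sox1-Cre; *Chd8* f/f, in which Sox1-driven Cre removes the floxed exon in early neural progenitors and not in the other cells of the tissue. The 3 *Chd8* +/+ libraries were the control of all 3 E12.5 mutant groups, whose comparisons are therefore not independent of each other.

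Levels are given as CPM, the counts of a gene scaled to a common library size, and levels of different genes are compared only as CPM per kilobase (kb) of exon. The level of *Chd8* was lower in every mutant group than in its control, but the neo/neo libraries lay above the heterozygous ones. It was 237 ± 3.15 CPM in wildtype, 167 ± 2.04 in heterozygous, 209 ± 5.62 in neo/neo and 149 ± 8.91 in neo/- embryos (mean ± SD, n = 3 each). In cKO it was at 121 ± 4.60 CPM, against 169 ± 11.95 in Ctrl. The neo cassette acts on splicing and the end of transcripts, so that a count over all exons does not measure intact *Chd8* transcripts and is no full check of the neo genotypes. Cre removes only the floxed exon, so the count in cKO does not measure intact transcripts either. For protein, the paper reports CHD8 levels that fall from heterozygous to neo/neo to neo/- neocortex. It also reports loss of CHD8 staining in the cKO neural tube. Libraries held 38774591 to 61051667 counts at E12.5 and 49632937 to 68488879 at E10.5. All 10 forebrain progenitor markers passed the filter at both stages, while the neuronal genes *Neurod6* and *Neurod2* were under 0.05 CPM in the E10.5 groups. At E12.5 the *Chd8* neo/neo replicates 1 and 2 stood apart from replicate 3. These 2 had 2007 and 1825 CPM of *Xist*, the RNA of the inactive X chromosome, and replicate 3 had 2.49, and in the other E12.5 groups *Xist* was high in *Chd8* +/+ replicate 3 (2054) and *Chd8* +/- replicate 1 (1464) and at most 2.41 CPM in the other libraries. At E10.5 *Xist* was at 1773, 3.02 and 2125 CPM in the Ctrl libraries and at 1075, 711 and 779 in cKO. The *Xist* level was used as a covariate at E12.5 only. Replicate 3 of each E10.5 group stood apart. Results that rest on these libraries are given with and without them.

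Because HIF binds ACGTG or GCGTG, the 250 bases before each annotated start were read from the RefSeq promoter table (GRCm38.p6). It held 31 of the 35 genes with 45 starts. Only the form ACGTG was counted as a match, and GCGTG was not. *Slc2a3*, *Epas1*, *Ndrg1* and *Bnip3l* were not matched. The letters ACGTG, or CACGT when read on the other strand, stood in 23 of the 45 windows (51.1%) and in 16.6% of all 32851 windows of the same length. Windows of these genes also had a higher median GC content, 61.6% against 52.4%. At least 2 matches were found in 10 of the 45 windows and in 6.81% of all windows. A palindromic CACGTG holds the motif on both strands and was counted as 2 matches. Of the sequences below, 4 are shown because they hold at least 2 matches, in capitals, and precede carriers or enzymes that were lower at E12.5, and the last precedes the gene that rose most and holds none. They were picked after values were seen and do not stand for all genes that fell. *Pfkl*, *Eno1* and *Pdk1*, which fell more than *Pgk1*, had 0 matches in every window, and the other start of *Ldha* (chr7:46846832-46847081) also had 0. A window with 0 matches can still hold the form GCGTG, as do the *Aldoc* window below and windows of *Pfkl*, *Eno1* and *Pdk1*.
*Slc16a3* (chr11:120948817-120949066, plus strand, 2 matches): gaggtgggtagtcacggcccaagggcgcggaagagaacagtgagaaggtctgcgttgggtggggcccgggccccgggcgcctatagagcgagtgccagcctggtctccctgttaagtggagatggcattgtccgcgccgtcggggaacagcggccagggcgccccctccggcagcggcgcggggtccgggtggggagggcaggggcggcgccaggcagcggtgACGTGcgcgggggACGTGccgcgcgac
*Slc16a1* (chr3:104638414-104638663, plus strand, 2 matches): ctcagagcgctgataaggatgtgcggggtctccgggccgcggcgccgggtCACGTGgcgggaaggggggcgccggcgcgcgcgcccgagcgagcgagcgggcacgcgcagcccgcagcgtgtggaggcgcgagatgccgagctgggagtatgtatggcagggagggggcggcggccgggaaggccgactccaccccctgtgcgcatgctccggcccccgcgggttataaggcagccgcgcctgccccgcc
*Ldha* (chr7:46845554-46845803, plus strand, 5 matches): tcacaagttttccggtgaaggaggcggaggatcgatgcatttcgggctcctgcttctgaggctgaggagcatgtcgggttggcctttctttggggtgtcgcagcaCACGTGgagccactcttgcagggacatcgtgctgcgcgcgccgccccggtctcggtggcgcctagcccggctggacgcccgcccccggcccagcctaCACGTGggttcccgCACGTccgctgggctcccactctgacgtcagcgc
*Pgk1* (chrX:106186850-106187099, plus strand, 2 matches): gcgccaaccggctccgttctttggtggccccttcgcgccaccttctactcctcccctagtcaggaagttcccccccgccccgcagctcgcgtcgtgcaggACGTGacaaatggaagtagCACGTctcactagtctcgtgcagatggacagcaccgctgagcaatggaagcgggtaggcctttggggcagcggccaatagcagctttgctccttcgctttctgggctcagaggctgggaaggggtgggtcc
*Aldoc* (chr11:78322823-78323072, plus strand, 0 matches): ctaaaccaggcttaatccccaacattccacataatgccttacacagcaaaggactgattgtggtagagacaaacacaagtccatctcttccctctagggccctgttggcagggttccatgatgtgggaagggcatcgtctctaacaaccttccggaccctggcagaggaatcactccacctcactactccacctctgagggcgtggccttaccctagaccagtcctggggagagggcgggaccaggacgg

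The *Ldha* and *Slc16a3* windows lie inside the longer gene models against which the reads were counted, and the *Pgk1* window ends directly before the first base of its gene. A match describes the letters of the window and is neither a binding site nor a cause. It was found in 14 of 19 matched genes that were lower at E12.5, in 4 of 7 that were higher and in 2 of 5 that did not pass the test.

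The comparison of the control groups of the stages, *Chd8* +/+ at E12.5 against Ctrl at E10.5, asked how the levels of these genes differ between the 2 stages. Transcripts of all 4 glucose and lactate carriers and of 9 of the 15 enzymes were lower at E12.5, while the enzymes *Hk1*, *Pfkm*, *Aldoc* and *Eno2* and both HIF alpha subunits were higher. Of the 35 genes, 30 were called at an adjusted p under 0.05 (edgeR quasi-likelihood test), 10 higher and 20 lower at E12.5, and 67.5% of all 18580 genes tested were called. The libraries of the stages did not overlap for 31 of the 35, and for 72.2% of all genes. Over all genes, 33.7% were called higher and 33.8% lower. The median log2 fold change of the 35 was -0.64, beside -0.008 over all genes. In bulk tissue, fewer cells of a type and less RNA per cell cannot be told apart. *Xist* was high in Ctrl replicates 1 and 3 and in *Chd8* +/+ replicate 3, and its part was not tested here. Stage also cannot be told apart from sequencing run, floxed alleles, dissection and pooling. Markers of other cells moved with it: all 12 neuron markers were higher at E12.5 (summed 4266 to 5072 CPM, against 239.8 to 437) and all 5 surface ectoderm markers tested were lower (6.75 to 7.65 CPM, against 31.5 to 62.5), while the sum of the 10 progenitor markers was 3420 to 3750 CPM against 3322 to 3692. Of the 10 progenitor markers 8 were called, 6 higher and 2 lower, with log2 fold changes from -1.665 to 2.656, so their sum hides changes in both directions. The part of any of these cells in the gene changes was not tested.

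**Figure D1:**
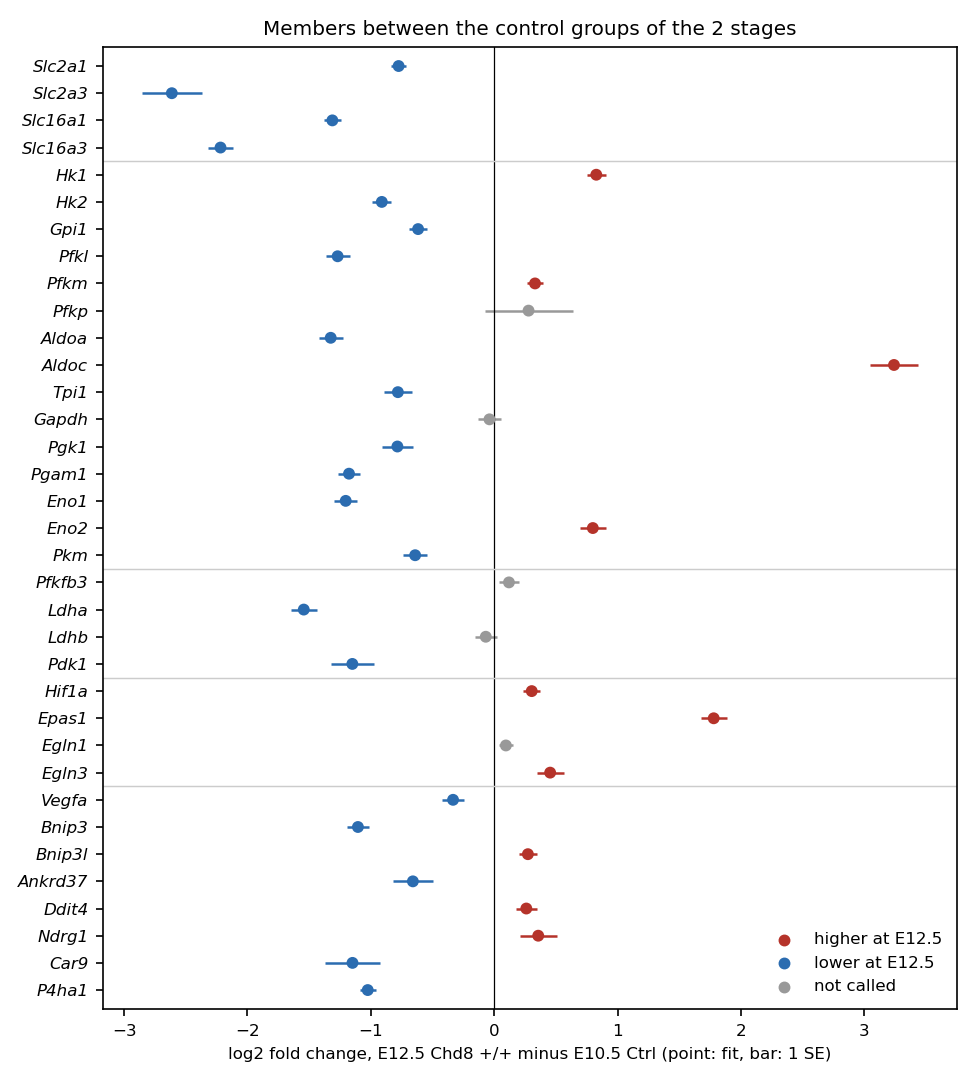
Log2 fold change of each of the 35 genes between Chd8 +/+ at E12.5 and Ctrl at E10.5, grouped by role (carriers, enzymes, lactate dehydrogenases and kinases, oxygen sensing, targets); points are the fitted values, bars 1 SE, and colours the calls. All 4 carriers lie left of 0 and Aldoc lies farthest right at 3.24.

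All 4 carriers fell. *Slc2a3* (ENSMUSG00000003153), the high-affinity glucose transporter GLUT3, was at 107, 186 and 186 CPM in the Ctrl libraries and at 26.2, 27.2 and 23.9 in *Chd8* +/+, a 6.12-fold lower level (log2 -2.61, SE 0.244, adjusted p = 0.000189). Every *Chd8* +/+ library lay far below every Ctrl library, of which replicate 1 was the lowest. *Slc16a3*, the lactate exporter MCT4, was at 109, 105 and 131 CPM in Ctrl and at 26.6, 21.1 and 25.3 in *Chd8* +/+ (4.65-fold lower, log2 -2.22, SE 0.101, adjusted p = 6.951e-09). *Slc16a1*, the lactate and pyruvate carrier MCT1, was at 133, 148 and 141 CPM against 54.5, 52.7 and 60.5 (2.48-fold lower, log2 -1.31, SE 0.0718, adjusted p = 1.567e-08). *Slc2a1*, the glucose transporter GLUT1 found in most cells, had the smallest change of the 4. It was at 229.6, 234 and 248 CPM against 135, 136 and 139 (1.71-fold lower, log2 -0.77, SE 0.0585, adjusted p = 2.548e-07). For none of the 4 did the libraries of the stages overlap. Per kb of exon, *Slc2a3* made up 24.3% ± 5.06 of the 2 glucose carriers in Ctrl and 8.35% ± 0.586 in *Chd8* +/+ (SD, n = 3). The share of *Slc16a3* in the 2 lactate carriers was 40.4% ± 3.18 and 26.6% ± 2.03.

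Among the 15 enzymes, 9 fell, 4 rose and 2 were not called. The fall was steepest for *Aldoa*, the aldolase of muscle and most dividing cells, which was at 672, 643 and 829.8 CPM in Ctrl and at 269, 286 and 288 in *Chd8* +/+ (2.51-fold lower, log2 -1.33, SE 0.0976, adjusted p = 2.045e-07). *Eno1*, the enolase of most cells, was at 1275, 1235 and 1484 CPM against 531, 604 and 573 (2.30-fold lower), and *Pgam1*, phosphoglycerate mutase, at 712, 818 and 855 against 335, 333 and 371 (2.26-fold lower). Neither gene overlapped between the stages. Both have processed copies that could share reads: *Eno1b* counts came to 2.49% to 3.13% of those of *Eno1*, and *Pgam1-ps2* to 4.92% to 6.27% of those of *Pgam1*. *Pgk1*, phosphoglycerate kinase, was 1.72-fold lower (582.8 to 333 CPM), and the copy *Pgk1-rs7* held 3.84% to 5.18% of its counts. *Tpi1*, *Gpi1* and *Pkm* were lower by 1.53-fold to 1.72-fold. *Gpi1* shares 16.5% of its exon bases with *Gm26762*, and the E12.5 counting did not use strand. *Pkm*, pyruvate kinase, had the highest level per kb of the 35 in both groups (1049 CPM per kb in Ctrl and 663 in *Chd8* +/+). *Gapdh*, often used as a reference gene, was at 1106 and 1061 CPM and was not called (log2 -0.04, SE 0.0903). Summed over the 17 enzymes and lactate dehydrogenases, the level was 10590 ± 1151 CPM in Ctrl and 6069 ± 309 in *Chd8* +/+.

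The shares of the isoenzymes per kb, given as a description, also differed between the stages. Hexokinases trap glucose in the cell: *Hk1*, the hexokinase of the brain, was at 36.1, 35.3 and 39.9 CPM in Ctrl and at 61.1, 67.8 and 65.7 in *Chd8* +/+ (1.78-fold higher, log2 0.83, SE 0.0756, adjusted p = 1.312e-06). *Hk2*, the hexokinase of muscle and many tumours, moved the other way, from 108, 113 and 116 CPM to 59.7, 52.0 and 65.1 (1.88-fold lower, log2 -0.91, SE 0.0782, adjusted p = 7.643e-07). Neither gene overlapped between the stages, and the share of *Hk1* in the 2 hexokinases per kb was 18.7% ± 0.771 in Ctrl and 43.6% ± 3.54 in *Chd8* +/+. Phosphofructokinase, the committed step, also has several subunits. *Pfkl*, the liver-type subunit, was at 332, 319 and 422 CPM in Ctrl and at 142, 143 and 153 in *Chd8* +/+ (2.41-fold lower, log2 -1.27, SE 0.0976, adjusted p = 5.123e-07). *Pfkm*, the muscle-type subunit, was at 74.9, 64.6 and 73.2 CPM against 87.5, 88.4 and 87.7 (1.26-fold higher, log2 0.33, SE 0.0652, adjusted p = 0.000711). The share of *Pfkm* per kb in the 3 subunits was 22.5% ± 2.42 in Ctrl and 45.3% ± 0.821 in *Chd8* +/+. *Pfkp*, the platelet-type subunit, was not called (log2 0.28, SE 0.356), and its Ctrl libraries were at 14.6, 15.2 and 32.5 CPM. Without Ctrl replicate 3, which was far above the other Ctrl libraries, *Pfkp* was called higher at E12.5 (log2 0.77, adjusted p = 0.00012).

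*Aldoc*, the aldolase of brain and glia, rose more than any other of the 35. It was at 4.001, 2.868 and 4.281 CPM in Ctrl and at 28.7, 43.1 and 32.3 in *Chd8* +/+, with no overlap (9.45-fold higher, log2 3.24, SE 0.196, adjusted p = 9.556e-07). Its share of the 2 aldolases per kb was 0.436% ± 0.0624 in Ctrl and 9.39% ± 1.64 in *Chd8* +/+, so that *Aldoa* remained the main form. *Eno2*, the enolase of neurons, was at 7.15, 7.73 and 6.84 CPM against 13.5, 12.8 and 10.9 (1.74-fold higher, log2 0.80, SE 0.106, adjusted p = 3.133e-05). It reached 2.44% ± 0.350 of the 2 enolases per kb in *Chd8* +/+, from 0.624% ± 0.0938. *Ldha*, the lactate dehydrogenase subunit that favours lactate formation, was at 1378, 1248 and 1677 CPM in Ctrl and at 470.2, 497 and 487 in *Chd8* +/+ (2.92-fold lower, log2 -1.54, SE 0.105, adjusted p = 1.004e-07). *Ldhb*, the heart-type subunit, was at 227, 178 and 187 CPM against 173, 198 and 184, which overlapped, and was not called (log2 -0.07, SE 0.0913). The share of *Ldhb* per kb was 20.9% ± 3.22 in Ctrl and 42.0% ± 1.01 in *Chd8* +/+.

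**Figure D2:**
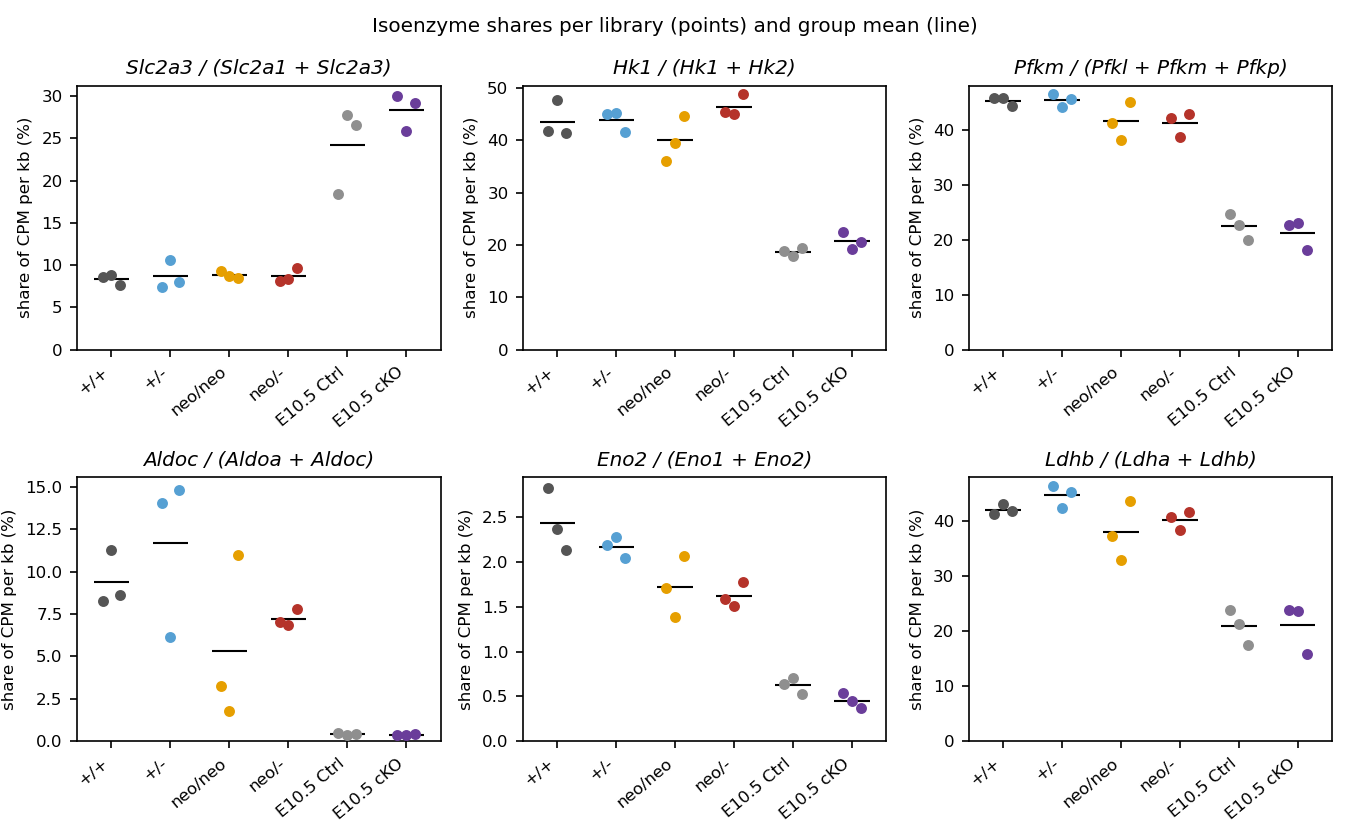
Share of one isoenzyme in the summed CPM per kb of its step, for each library (points) and as the group mean (lines), in the 4 E12.5 and 2 E10.5 groups. The E12.5 libraries lie apart from the E10.5 libraries in every panel, and the Chd8 neo/neo libraries are spread widely for Aldoc (1.79% to 10.97%).

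The kinases behaved unequally. *Pdk1*, which shuts the entry of pyruvate into mitochondria, was at 102, 92.2 and 149 CPM in Ctrl and at 54.8, 48.5 and 49.3 in *Chd8* +/+ (2.22-fold lower, log2 -1.15, SE 0.177, adjusted p = 0.000978). *Pfkfb3*, which makes the activator of phosphofructokinase, was at 49.1, 50.3 and 60.0 CPM against 56.5, 57.0 and 57.2. It was not called (log2 0.12, SE 0.0799), but was called higher without Ctrl replicate 3 (log2 0.225, adjusted p = 0.0224).

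The HIF alpha subunits were higher at E12.5. *Epas1* (ENSMUSG00000024140), which encodes HIF-2 alpha and is also strongly used by endothelial cells, was at 7.58, 9.91 and 9.93 CPM in Ctrl and at 30.7, 31.2 and 30.9 in *Chd8* +/+, with no overlap (3.43-fold higher, log2 1.78, SE 0.105, adjusted p = 2.912e-08). Summed endothelial markers were at 320.2 to 333 CPM in Ctrl and 343 to 348 in *Chd8* +/+. Single markers moved both ways, with 5 of the 12 called higher and 2 lower (log2 -1.159 to 0.818 over the 12). Their part in the rise of *Epas1* was not tested. *Hif1a*, the more widely used alpha subunit, was at 174, 188 and 192 CPM against 220.2, 214 and 239 (1.24-fold higher, log2 0.30, SE 0.0671, adjusted p = 0.00158). Per kb, *Epas1* made up 5.20% ± 0.504 of the 2 subunits in Ctrl and 13.3% ± 0.710 in *Chd8* +/+. *Egln3*, a prolyl hydroxylase that is itself induced by HIF, was 1.37-fold higher (7.83 to 10.6 CPM, adjusted p = 0.00305). *Egln1*, the main oxygen sensor of the family, was at 97.6 and 102.7 CPM and was not called (log2 0.10, SE 0.0599).

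The 8 targets did not move as a block, since 5 fell and 3 rose. *Bnip3*, a mitochondrial receptor that marks mitochondria for breakdown, was at 73.5, 63.2 and 81.0 CPM in Ctrl and at 35.7, 30.9 and 33.2 in *Chd8* +/+ (2.15-fold lower, log2 -1.10, SE 0.0906, adjusted p = 5.145e-07). *P4ha1*, a collagen prolyl hydroxylase subunit, was at 97.7, 85.5 and 90.2 CPM against 44.9, 42.4 and 45.1 (2.04-fold lower, adjusted p = 6.148e-08). Neither overlapped between the stages. *Car9*, an acid-handling carbonic anhydrase, was at 1.52, 1.03 and 1.33 CPM against 0.624, 0.543 and 0.556 (2.22-fold lower, adjusted p = 0.000592), the lowest level per kb of the 35 in *Chd8* +/+. *Vegfa*, the growth factor that draws in blood vessels, fell 1.26-fold (adjusted p = 0.00657), and *Ankrd37* fell 1.58-fold (adjusted p = 0.0034), with 28.9% of its exon bases shared with *Lrp2bp* and *Ufsp2*. *Bnip3l*, the close relative of *Bnip3*, rose instead (129.6 to 154 CPM, 1.21-fold, adjusted p = 0.00634). *Ddit4*, an inhibitor of mTOR signalling, rose 1.198-fold (adjusted p = 0.0178). *Ndrg1*, a stress-responsive gene at 2.19 CPM in Ctrl and 2.77 in *Chd8* +/+, was the weakest of the 30 calls (log2 0.36, adjusted p = 0.0496) and was lost in 7 of 9 alternatives. The other 29 calls were kept in all 9.

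The rest of the pathway was divided as well. Its counts stand beside 67.5% of all genes called between the stages (33.7% higher and 33.8% lower). The share called was 78.3% for other glycolysis genes and 81.1% for other HIF targets. It was near that of all genes for oxygen sensing (69.2%), pyruvate entry (69.2%) and the pentose phosphate pathway (62.5%). Of 23 other glycolysis and glucose-handling genes tested, 8 rose and 10 fell. *Eno3*, the muscle enolase, was at 31.1 CPM in Ctrl and 7.94 in *Chd8* +/+ (log2 -1.95), and *Pklr*, the pyruvate kinase of liver and red cells, at 10.9 and 0.626 (log2 -4.08). Of 37 other HIF target genes 10 rose and 20 fell, with a median of -0.44, among them the adenylate kinase gene *Ak4* (134 to 37.8 CPM, log2 -1.80), while *Mxi1* and *Ccng2* rose (log2 1.11 and 1.21). Of the 13 genes of the oxygen-sensing machinery 7 rose and 2 fell, led by *Hif3a* (10.3 to 50.9 CPM, log2 2.33) and *Arnt2*, the neural partner of the HIF alpha subunits (134 to 314 CPM, log2 1.25). Of 13 genes for pyruvate entry into mitochondria 5 rose, such as *Mpc1* (log2 0.98), a subunit of the pyruvate carrier, and 4 fell, such as *Pdha1* (log2 -0.66). In the pentose phosphate pathway *G6pdx* rose (log2 0.36) and 4 of the other 7 genes fell, by 0.27 to 0.55 on the log2 scale.

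The mutant comparisons asked whether lowering CHD8 alters these genes. In *Chd8* +/- none of the 35 passed the test, where 0.0213% of 18810 genes did (0.0159% higher and 0.00532% lower). At an unadjusted p under 0.05, edgeR found 4 of the 35 (*Pfkm*, *Slc2a1*, *Epas1* and *Eno2*) and 1190 of the 18810 genes. The log2 fold changes of the 4 were -0.12, -0.16, -0.15 and -0.21, and DESeq2 also called 0 of the 35 at its adjusted threshold. Fitted values were negative for 28 of the 35, with a median of -0.08 beside 0.001 over all genes. The libraries did not overlap for 8 of the 35, each lower in *Chd8* +/-, and for 11.2% of all genes. The endothelial markers, from cells that also use *Slc2a1* and *Epas1* strongly, had negative values for 12 of 12 (0 called, 5 at an unadjusted p under 0.05) and summed to 301.8 to 323.2 CPM against 343 to 348; their part was not tested.

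In *Chd8* neo/neo, 3 of the 35 were called, all lower, where 8.16% of all genes were called (3.71% higher and 4.45% lower). The median of the 35 was -0.01. *Eno2* was at 13.5, 12.8 and 10.9 CPM in *Chd8* +/+ and at 9.55, 8.73 and 10.5 in *Chd8* neo/neo (1.29-fold lower, log2 -0.37, SE 0.0894, adjusted p = 0.0236, edgeR). The gap was narrow, since the lowest *Chd8* +/+ library lay just above the highest *Chd8* neo/neo library. *Epas1* was at 30.7, 31.2 and 30.9 CPM against 25.1, 25.5 and 27.5 (1.19-fold lower, log2 -0.25, SE 0.064, adjusted p = 0.0319). *Pfkm* was at 87.5, 88.4 and 87.7 CPM against 81.99, 78.65 and 80.57 (1.09-fold lower, log2 -0.13, SE 0.0362, adjusted p = 0.0476). For none of these 3 did the groups overlap, as for 25.8% of all genes. None of the 3 calls was kept in all 19 alternatives: *Pfkm* was kept in 3, *Epas1* in 11 and *Eno2* in 13. The count fell to 0 when replicate 1 or replicate 2 of *Chd8* +/+ was left out, and likewise for replicate 1 or replicate 2 of *Chd8* neo/neo. Over all genes the count went from 1534 to 1280 and 564 without these *Chd8* +/+ libraries. Without these *Chd8* neo/neo libraries it went to 565 and 435. The neuron markers moved with *Eno2*, with negative values for 12 of 12, 4 of them called, and summed levels of 3457 to 4124 CPM in *Chd8* neo/neo against 4266 to 5072 in *Chd8* +/+. The endothelial markers, beside *Epas1*, summed to 308 to 341 CPM against 343 to 348, with negative values for 8 of 12 and 1 called lower (*Kdr*, log2 -0.17, adjusted p = 0.0236). The part of either in these calls was not tested.

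Without *Chd8* neo/neo replicate 3, 16 of the 35 were called in that comparison, 10 higher and 6 lower, and the count over all genes went from 1534 to 2605. Those higher included *Slc16a3* (log2 0.68, adjusted p = 0.00491), *Pdk1* (0.51, adjusted p = 0.00652), *Ldha* (0.34, adjusted p = 0.00524), *Aldoa* (0.33, adjusted p = 0.00477) and *Pgam1* (0.32, adjusted p = 0.00505), and those lower included *Aldoc* (-1.73, adjusted p = 0.0425), *Ndrg1* (-0.88, adjusted p = 0.0103) and *Pfkp* (-0.39, adjusted p = 0.0362), by edgeR on 11 libraries. A fit with *Chd8* neo/neo replicate 3 as the only library of its group, chosen after seeing the data, has no spread within that group. Its count is therefore not read here. The per-library values show the split within the genotype. *Slc16a3* was at 35.2 and 42.8 CPM in *Chd8* neo/neo replicates 1 and 2, at 23.1 in replicate 3, and at 19.3 to 26.6 in the other 9 E12.5 libraries. *Aldoc* was at 12.99 and 8.23 CPM in replicates 1 and 2, at 40.4 in replicate 3 and at 20.9 to 54.1 elsewhere. Replicates 1 and 2 lay above all other E12.5 libraries for 5 of the 35 (*Slc2a3*, *Hk2*, *Pdk1*, *Slc16a1* and *Slc16a3*), as they did for 5.99% of all genes, and below all others for 4 (*Pfkp*, *Aldoc*, *Epas1* and *Ndrg1*), as for 7.23%. Replicate 2 was the highest of the 12 for 15 of the 35 and for 9.55% of all genes. These are the 2 *Chd8* neo/neo libraries with high *Xist*. The neuron markers summed to 3457 and 3681 CPM in them and to 4124 in replicate 3, and the progenitor markers to 4052 and 4168 against 3437. With the *Xist* level as a covariate 1 of the 35 was called, and the part of these differences was not tested further.

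**Figure D3:**
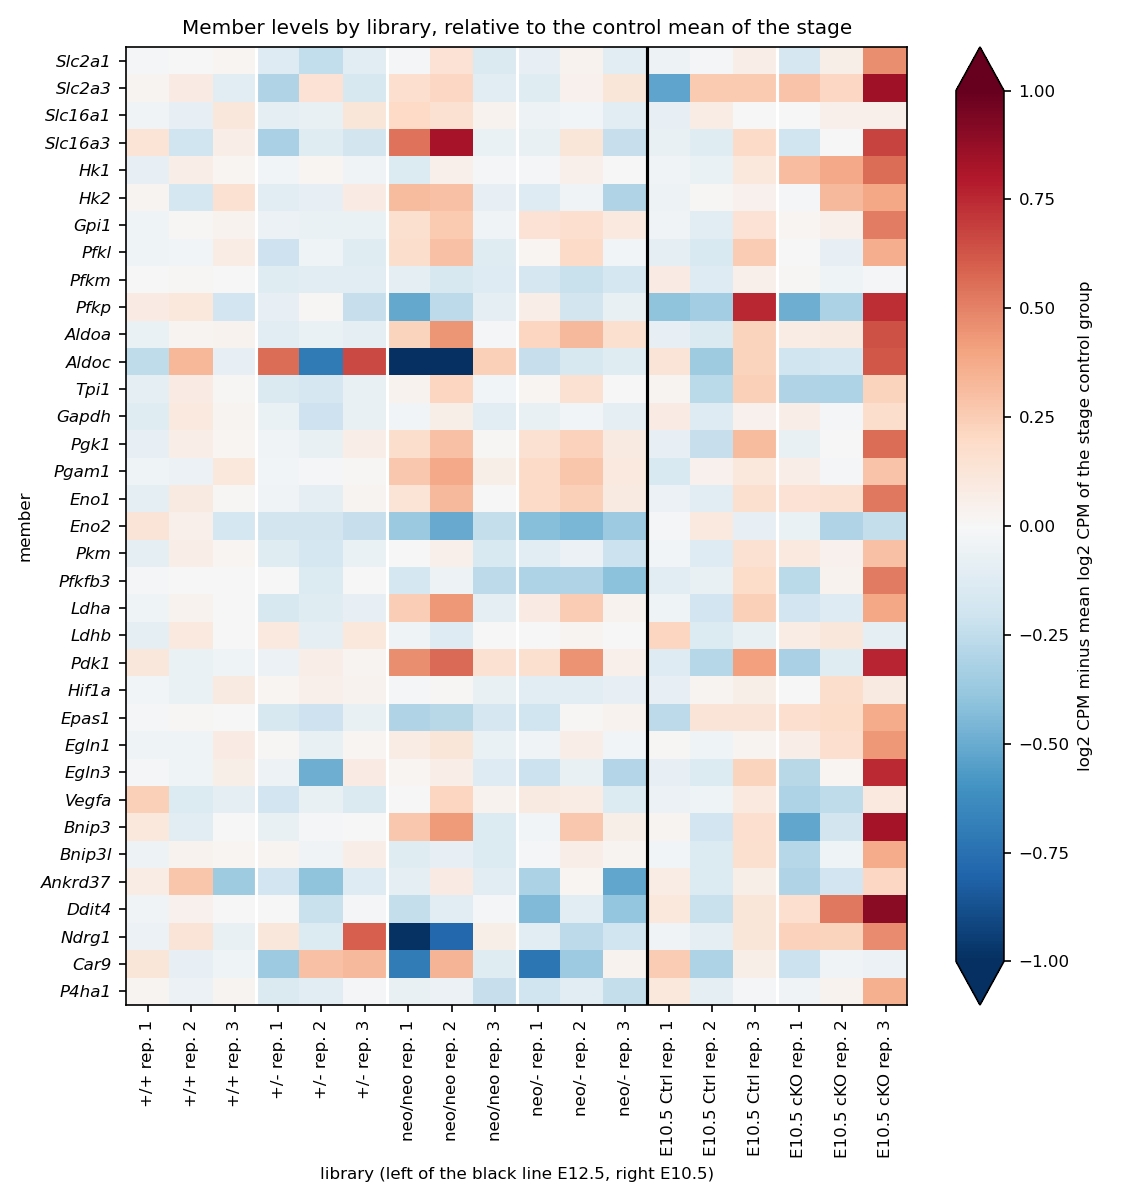
Heat map of the 35 genes (rows) in the 18 libraries (columns), coloured by log2 CPM minus the mean log2 CPM of the control group of the same stage, Chd8 +/+ left of the black line and Ctrl right of it; the colour scale ends at ± 1. Chd8 neo/neo replicates 1 and 2 differ from replicate 3, and cKO replicate 3 is the highest of the E10.5 libraries for 27 of the 35.

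In *Chd8* neo/-, 4 of the 35 were called, all lower, where 11.5% of all genes were called (5.48% higher and 5.99% lower). The median of the 35 was -0.05. *Pfkfb3* (ENSMUSG00000026773, chr2:11471433-11554077) was at 56.5, 57.0 and 57.2 CPM in *Chd8* +/+ and at 46.0, 46.1 and 42.9 in *Chd8* neo/- (1.26-fold lower, log2 -0.34, SE 0.0568, adjusted p = 0.00213, edgeR). The *Chd8* +/+ libraries were within 1 CPM of each other and lay clear of all *Chd8* neo/- libraries, and 33.2% of all genes did not overlap in this comparison. It was at 56.8, 51.6 and 56.9 CPM in *Chd8* +/- and at 50.3, 54.8 and 47.4 in *Chd8* neo/neo, which lay between. *Pfkm* (chr15:98092589-98132447) was at 78.2, 75.2 and 77.9 CPM in *Chd8* neo/-, below all *Chd8* +/+ libraries (1.14-fold lower, log2 -0.19, SE 0.0362, adjusted p = 0.0049). *Eno2* (chr6:124760053-124769673) was at 9.21, 9.0 and 9.61 CPM, also below all of them (1.34-fold lower, log2 -0.42, SE 0.0897, adjusted p = 0.00865). These 3 calls were kept in all 18 alternatives. Neuron markers were again lower in sum (3847 to 4313 CPM, 12 of 12 negative, 2 called), and erythroid markers were higher (4694 to 7278 CPM against 3330 to 4087, 5 of 12 called higher). Endothelial markers had positive values for 12 of 12, with 1 called higher, and summed to 350 to 384 CPM against 343 to 348. The part of these markers in the 4 calls was not tested. *Ddit4* was at 62.6, 65.8 and 63.7 CPM in *Chd8* +/+ and at 47.2, 59.2 and 49.0 in *Chd8* neo/- (1.24-fold lower, log2 -0.30, SE 0.0845, adjusted p = 0.0349). Its groups did not overlap, although *Chd8* neo/- replicate 2 lay near the controls, and the call was lost in 7 of 18 alternatives. Leaving out any 1 *Chd8* +/+ library, or *Chd8* neo/- replicate 1 or 3, gave adjusted p-values of 0.0704 to 0.129 for *Ddit4*. The count was 8 without *Chd8* neo/neo replicate 3, which enters this fit through the shared estimate of the spread. In the same setting the count over all genes went from 2158 to 2574.

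**Figure D4:**
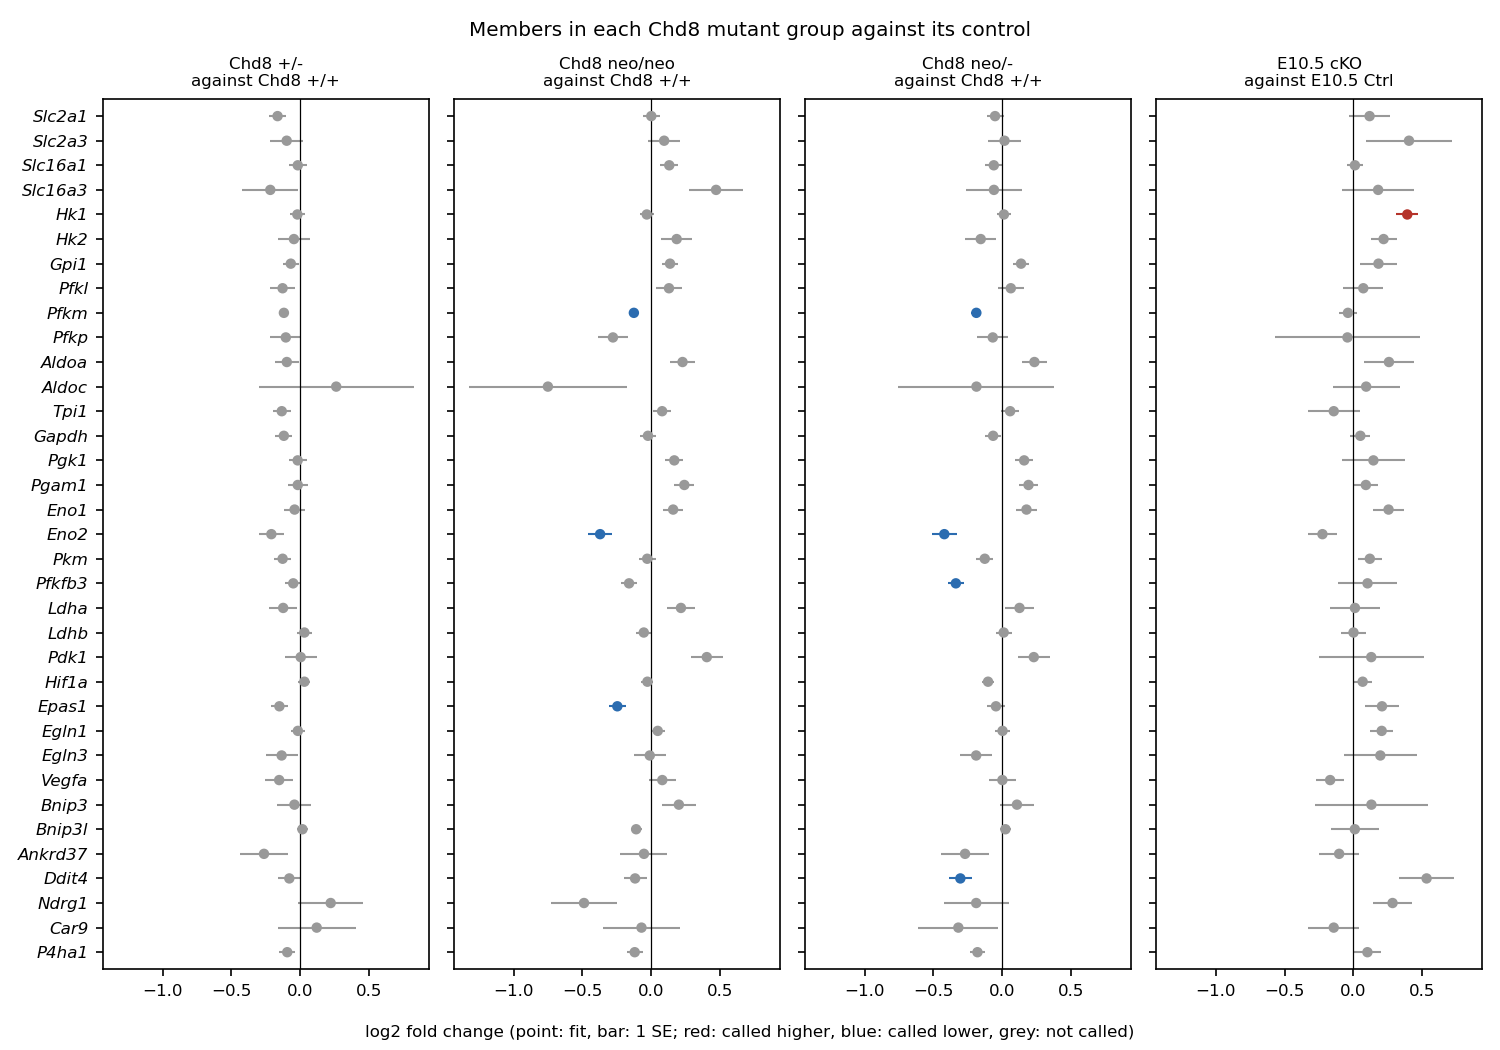
Log2 fold change of each of the 35 genes in each mutant group against its control; points are fitted values, bars 1 SE, red and blue the genes called higher and lower. No gene was called in Chd8 +/-, and the genes called elsewhere are 3 in Chd8 neo/neo, 4 in Chd8 neo/- and 1 in cKO.

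The mutant groups were also compared with each other. Against *Chd8* +/-, none of the 35 was called in *Chd8* neo/neo, where 5.28% of all genes were called (2% higher and 3.28% lower) and 25.2% did not overlap. At an unadjusted p under 0.05 edgeR found 15 of the 35 and 4369 of all 18810 genes, and DESeq2 called 9 of the 35 and 1797 of all genes. *Aldoa* had the smallest adjusted p (0.0515, log2 0.32). Replicate numbers deviated together in these groups, and with the replicate block 1 gene, *Aldoa*, was called (log2 0.32, adjusted p = 0.0428). Without *Chd8* neo/neo replicate 3 the count was 15, of which 13 were higher, and over all genes it went from 994 to 2100. *Chd8* neo/- against *Chd8* +/- gave 2 calls, where 5.43% of all genes were called (2.18% higher and 3.25% lower). *Pfkfb3* was lower (log2 -0.29, SE 0.0569, adjusted p = 0.0123), a call lost only without *Chd8* +/- replicate 1 (adjusted p = 0.0518). *Aldoa* was at 326, 351 and 314 CPM in *Chd8* neo/- and at 259.8, 268 and 262 in *Chd8* +/- (1.26-fold higher, log2 0.33, SE 0.088, adjusted p = 0.0487), with no overlap, as for 30.4% of all genes. This call was kept in 6 of 18 alternatives and was lost on leaving out any library of either group. The endothelial markers were higher in *Chd8* neo/- in the same comparison, 6 of 12 by the test. Between *Chd8* neo/- and *Chd8* neo/neo none of the 35 was called, where 0.0159% of all genes were (0.0106% higher and 0.00532% lower) and 15.4% did not overlap. At an unadjusted p under 0.05 there were 7 of the 35 and 1585 of all 18810 genes. Without *Chd8* neo/neo replicate 3, 1 of the 35 (*Slc16a3*, log2 -0.74, adjusted p = 0.0492) and 23 of all genes were called.

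In cKO at E10.5 the 1 gene called of the 35 was *Hk1*, where 11.4% of 18435 genes were called (5.75% higher and 5.7% lower). *Hk1* (ENSMUSG00000037012, chr10:62268855-62379908) was at 36.1, 35.3 and 39.9 CPM in Ctrl and at 46.0, 48.1 and 54.4 in cKO (1.31-fold higher, log2 0.39, SE 0.0784, adjusted p = 0.0109, edgeR). All cKO libraries lay above all Ctrl libraries, and 32.7% of all genes did not overlap. The call was kept in 10 of 11 alternatives and was lost when replicate 3 of both groups was left out (log2 0.37, adjusted p = 0.0835). In that setting the count over all genes also fell, from 2110 to 358. *Hk2* was at 108, 113 and 116 CPM in Ctrl and 111, 141 and 147 in cKO and was not called (log2 0.22, SE 0.0939), and the share of *Hk1* in the hexokinases per kb was 18.7% ± 0.771 and 20.7% ± 1.59. *Hk1* was thus higher in cKO and also higher in *Chd8* +/+ at E12.5, comparisons that share the Ctrl libraries. Mesenchyme markers were higher in cKO, 3 of 9 by the test, with sums of 1023 to 1209 CPM against 818 to 899. Endothelial markers had positive values for 9 of 12, with 2 called higher, and summed to 335 to 392 CPM against 320 to 333. The neuron markers summed to 288 to 398 CPM against 239.8 to 437. The part of these markers in the result was not tested.

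The other 34 genes were not called in cKO. Fitted values were positive for 28 of the 35, with a median of 0.10 beside -0.002 over all genes. Replicate 3 of cKO was the highest E10.5 library for 27 of the 35 and for 18.6% of all genes. At an unadjusted p under 0.05 there were 5 (*Hk1*, *Egln1*, *Hk2*, *Ddit4* and *Eno1*), a smaller share than the 5049 of all 18435 genes. *Ddit4* was at 58.0, 46.3 and 58.6 CPM in Ctrl and at 60.7, 77.7 and 101 in cKO, which did not overlap (log2 0.53, SE 0.203, adjusted p = 0.166), and it was called without cKO replicate 1 (log2 0.70, adjusted p = 0.0259). The count of calls was 3 without cKO replicate 1 and 2 without cKO replicate 3. Over all genes the count fell from 2110 to 1650 and 826 in these 2 settings. Replicate 3 weighed on many genes in both groups. It was the highest Ctrl library for 26 of the 35 (29.4% of all genes) and the highest cKO library for 29 (33.7%), and it was both for 25 (12.4%). *Bnip3* was at 50.5, 63.5 and 128 CPM in the cKO libraries and *Pdk1* at 89.4, 103 and 190.0, so that replicate 3 alone stood above all Ctrl libraries. The summed enzymes and lactate dehydrogenases were at 10310, 9607 and 11860 CPM in Ctrl and at 10680, 10580 and 13610 in cKO.

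**Figure D5:**
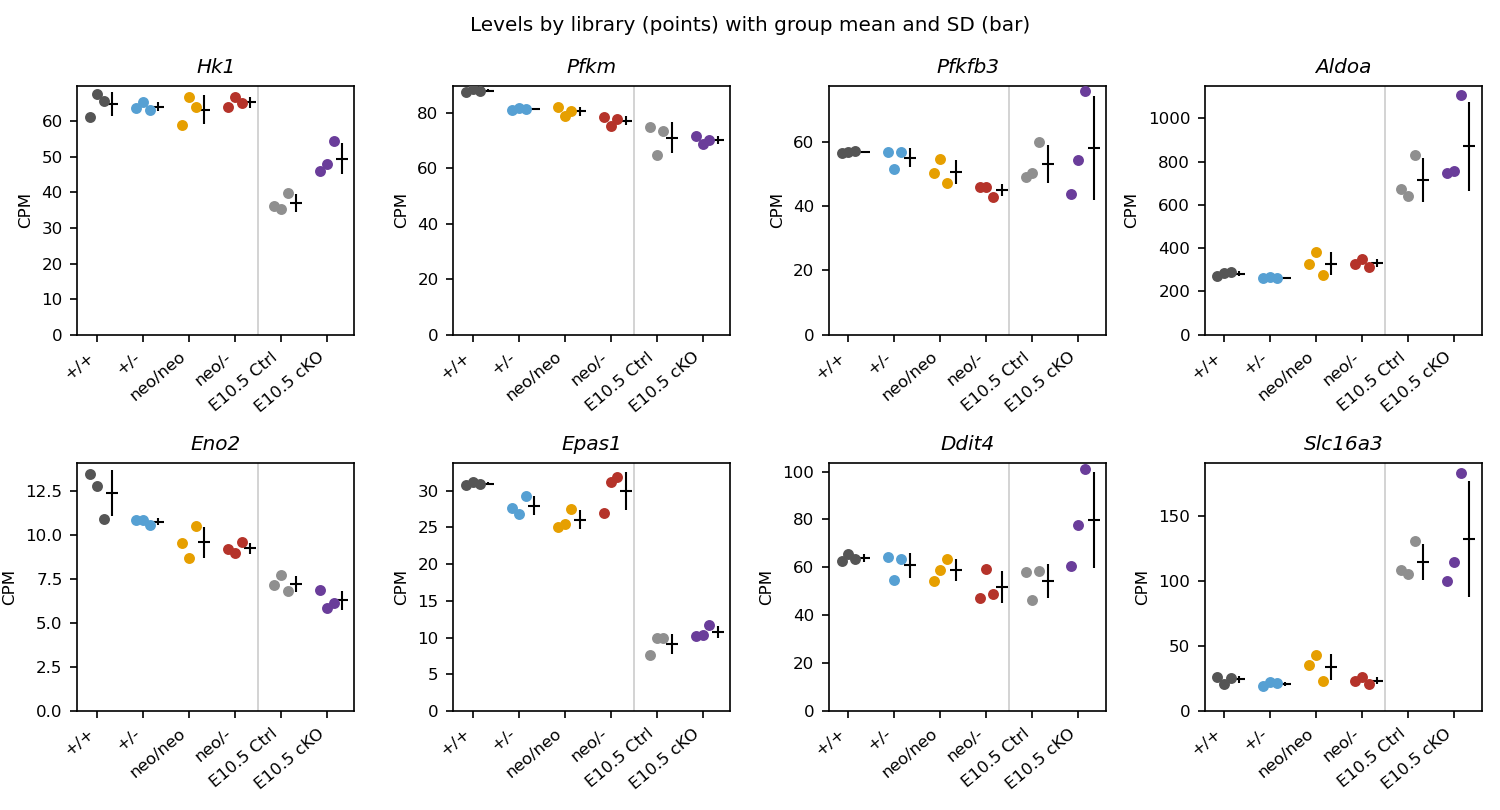
CPM by library (points) with the group mean and SD (bars) for 8 genes: Hk1, Pfkm, Pfkfb3, Aldoa, Eno2, Epas1, Ddit4 and Slc16a3. Hk1 is raised in cKO (46.0 to 54.4 CPM against 35.3 to 39.9), while Pfkfb3 is lowest in Chd8 neo/- (42.9 to 46.1 CPM).

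Whether the effect in cKO differed from that in *Chd8* neo/- was tested directly, in 1 fit of all 18 libraries. It did for 2 of the 35, *Hk1* and *Ddit4*, where 6.79% of 19565 genes were called (3.9% higher and 2.89% lower). The effect on *Hk1* was larger in cKO by 0.38 (SE 0.0911, adjusted p = 0.0187, edgeR), with log2 fold changes of 0.39 in cKO and 0.01 in *Chd8* neo/-. The effect on *Ddit4* was larger in cKO by 0.83 (SE 0.21, adjusted p = 0.0315), with 0.53 in cKO and -0.30 in *Chd8* neo/-. The difference for *Hk1* was lost without *Chd8* neo/- replicate 1 (adjusted p = 0.0526) and without cKO replicate 3 (adjusted p = 0.0541), and that for *Ddit4* in 9 of 21 alternatives. For *Pfkfb3* and *Pfkm*, called in *Chd8* neo/- alone of these 2 groups, the difference was 0.44 (SE 0.194) and 0.15 (SE 0.0671) and did not pass (adjusted p = 0.199 and 0.205).

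The other genes of these pathways were counted beside the shares of 8.16%, 11.5% and 11.4% of all genes called in *Chd8* neo/neo, *Chd8* neo/- and cKO. Of 23 other glycolysis and glucose-handling genes 3, 4 and 5 were called in these groups, and of 13 genes for pyruvate entry 2, 3 and 2. None of the 13 oxygen-sensing machinery genes passed in any mutant group against its control (edgeR), with 2 at an unadjusted p under 0.05 in *Chd8* neo/- and 0 in the others, and of the 37 other HIF target genes 0 passed in *Chd8* neo/neo, 2 in *Chd8* neo/- and 3 in cKO. In *Chd8* neo/- these were *Kdm3a* (log2 -0.20) and *Angptl4* (log2 -0.39), and in cKO *Kdm4b* (0.29), *Gys1* (0.27) and *Wsb1* (-0.26). *G6pc3*, a glucose-6-phosphatase that acts against hexokinase and removes an inhibitory by-product, was called higher in each group against its control except *Chd8* +/-. It was at 22.2 CPM in *Chd8* +/+, 25.8 in *Chd8* +/-, 30.3 in *Chd8* neo/neo (log2 0.45, SE 0.055, adjusted p = 0.00123) and 33.4 in *Chd8* neo/- (log2 0.59, SE 0.055, adjusted p = 2.946e-05). Against *Chd8* +/- it was also called higher in *Chd8* neo/neo (log2 0.23, adjusted p = 0.0309) and *Chd8* neo/- (log2 0.37, adjusted p = 0.00338, edgeR). In cKO it was at 42.8 CPM, against 27.9 in Ctrl (log2 0.59, SE 0.077, adjusted p = 0.00117). *Pfkfb2*, a relative of *Pfkfb3*, was lower in the same 3 groups, by 0.29, 0.37 and 0.79 on the log2 scale, with adjusted p-values of 0.0465, 0.0116 and 0.000458. For *Pfkfb2* the effect in cKO minus that in *Chd8* neo/- was -0.425 (SE 0.113, adjusted p = 0.0303). *Pcx*, which turns pyruvate into oxaloacetate, was higher in all 3 (log2 0.21, 0.23 and 0.68), and its effect differed between cKO and *Chd8* neo/- by 0.45 (SE 0.113, adjusted p = 0.0224). Of the 8 pentose phosphate genes none was called in any mutant against its control, with 1, 1 and 2 at an unadjusted p under 0.05 in *Chd8* neo/neo, *Chd8* neo/- and cKO (edgeR).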

How the data were processed

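RNA-seq of 18 libraries was analysed. Per the labels and file headers, the authors trimmed reads with Trim Galore 0.4.1, checked them with FastQC 0.11.2, aligned them with TopHat2 2.1.0 to GRCm38 and counted read pairs per gene with featureCounts 1.5.0, without strand in the E12.5 header. The counting command for E10.5 is not given in the sources used here. The authors deposited raw counts for 36 runs, and the 2 runs of each library were summed. The exon length in bases, also deposited by the authors, gave the CPM per kb. Groups came from the labels.

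The members and lists were chosen with earlier results of these data known. edgeR 4.0.16 (R 4.3.3) was used with filterByExpr, TMM scaling and the quasi-likelihood F test. All 12 E12.5 libraries were fitted together, the 6 E10.5 libraries apart, the 2 control groups together for stage, and all 18 libraries for the difference of effects. Benjamini-Hochberg adjusted p-values run over all genes tested, and a gene was called below 0.05. CPM used TMM over all 18 libraries, which differed from scaling by stage by at most 1.18%. Data were simulated from these libraries with 200 genes changed by 1 on the log2 scale. There edgeR recovered 76.5% for *Chd8* neo/- (10 false calls among 18810 genes), 81% for cKO (15 of 18435), 75.5% for stage (15 of 18580) and 60% for the difference (7 of 19565). Smaller changes, such as those of the members called in the mutants, were not simulated, so their recovery is not known. The comparisons of *Chd8* +/- and *Chd8* neo/neo were not simulated either.

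Values in every library were to be given for the called members with the 14 largest log2 fold changes and for isoenzymes compared. *Pfkfb3*, *Ddit4*, *Ndrg1*, the genes named for single libraries and the printed promoters were chosen after values were seen. From other lists at most 4 called genes per comparison were named, by smallest adjusted p, with *Mpc1*, *Pdha1*, *G6pdx*, *Mxi1* and *Ccng2* kept within that rule. Same-numbered libraries deviated together between *Chd8* +/- and *Chd8* neo/neo (correlations of 0.108, 0.196 and 0.199) and in no other comparison for all 3 numbers, and no source names what a number shares. Alternatives were DESeq2 1.42.0, RLE scaling, no filter, a replicate block, the *Xist* level as covariate, only the groups compared, and leaving out each library. Sequences came from the RefSeq table of GRCm38.p6, and figures were drawn with matplotlib 3.10.9.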

Additional observations from a re-analysis of the deposited data

Results flagged for a closer look

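The effects in cKO and in *Chd8* neo/- differed for 2 of the 35 genes by the test of the difference itself, a share (5.71%) below the 6.79% of all 19565 genes. For *Hk1*, the brain hexokinase, the effect in cKO minus the effect in *Chd8* neo/- was 0.378 on the log2 scale (SE 0.0911, adjusted p = 0.0187, edgeR). *Hk1* was at 49.5 CPM in cKO against 37.1 in Ctrl, with all 3 cKO libraries above all Ctrl libraries, and at 65.4 CPM in *Chd8* neo/- against 64.9 in *Chd8* +/+, with overlap. Over the 21 alternatives the difference ran from 0.307 to 0.430, and 19 kept the call. For *Ddit4*, an inhibitor of mTOR signalling, the difference was 0.834 (SE 0.210, adjusted p = 0.0315, edgeR). *Ddit4* was at 79.8 CPM in cKO against 54.3 in Ctrl and at 51.8 CPM in *Chd8* neo/- against 64.0 in *Chd8* +/+, and neither pair of groups overlapped. The difference ran from 0.631 to 0.995, and 12 of 21 alternatives kept the call, with adjusted p-values up to 0.0804. The 2 effects come from stages that also differ in the allele, the tissue dissected and the pooling of embryos, which cannot be told apart here.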

How the results depend on the processing

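The stage calls moved least: of 30 members, DESeq2 called 29, leaving out 1 library gave 29 to 32, and 29 were called in every alternative. In *Chd8* +/- the count was 0 in every alternative. For *Chd8* neo/neo against *Chd8* +/+ the 3 calls became 5 with DESeq2, 1 with the *Xist* covariate, 0 with only the groups compared and 0 to 16 without 1 library. The 4 calls in *Chd8* neo/- were 3 to 8 without 1 library. For *Chd8* neo/neo against *Chd8* +/- the count of 0 became 9 with DESeq2, 3 without the filter, 1 with the replicate block and 0 to 15 without 1 library. For *Chd8* neo/- against *Chd8* +/- the 2 calls became 4 with DESeq2, 1 with RLE scaling, 4 with the *Xist* covariate, 9 with only the groups compared and 0 to 6 without 1 library. *Chd8* neo/- against *Chd8* neo/neo gave 0 to 1 without 1 library. In cKO the 1 call became 2 without the filter, 3 with the replicate block, 0 without both replicates 3 (chosen after seeing the data) and 1 to 3 without 1 library. The 2 differences of effects became 1 without the filter and 0 to 3 without 1 library. Counts over all genes moved too. For *Chd8* neo/neo against *Chd8* +/+, 1534 became 2288 with DESeq2, 1005 with the *Xist* covariate and 430 with only the groups compared. For *Chd8* neo/- against *Chd8* +/-, 1021 became 1702, 782 and 1508 in these settings. For cKO, 2110 became 2722 without the filter, 2598 with the replicate block and 358 without both replicates 3. The cause was not tested. No call changed direction. RLE scaling and DESeq2 moved the median of all genes by at most 0.0206 on the log2 scale. With 3 libraries a group, an exact permutation test of a single gene could not give a p below 0.10, so calls rest on the spread shared across genes. In the replicate block the pairing was checked for each comparison; apart from the counts above, it moved no count of members by more than 1.5 times, and *Ddit4* in *Chd8* neo/- was lost (adjusted p = 0.0528).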
